A study of Mus musculus with 16 samples.

Results

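The 3 genes Pou5f1, Sox2 and Nanog encode the core transcription factors of mouse embryonic stem (ES) cells. In the deposited table of accessible regions (peaks), 8 of 70150 peaks carried one of their names as the nearest gene in the first, Ensembl-based annotation: 3 for Pou5f1, 2 for Sox2 and 3 for Nanog. All 8 passed the filter on low counts that kept 69692 peaks for testing, so no member was lost. The assay was ATAC-seq, where the transposase Tn5 inserts sequencing adapters into open chromatin. The 16 libraries came from 4 genotypes of E14 ES cells with 4 libraries each. In the AID-Zzz3 and AID-Yeats2 lines, a subunit of the histone acetyltransferase complex ATAC carries an auxin-inducible degron, a tag that lets auxin trigger destruction of the protein. The Supt7l KO line lacks a structural subunit of SAGA, a related coactivator complex, and the WT line carries none of these changes. All 4 lines, WT included, were given auxin for 24 h. They all grew feeder-free on gelatine in serum medium containing LIF (1500 U/ml), the GSK3 inhibitor CHIR99021 (3 µM) and the MEK inhibitor PD0325901 (1 µM). Independent clones and separate days are mentioned in the series text but not tied to the 16 libraries, so those of a genotype may share a clone and p-values measure the spread between libraries. Loss of the Zzz3, Yeats2 or Supt7l protein was not analysed here.

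Pou5f1 encodes Oct4, a POU-domain factor that reads an octamer motif, and Sox2 encodes an HMG-box factor that binds beside it on composite elements. Nanog encodes a homeodomain factor that stabilises the naive state. The 3 proteins bind their own and each other's regulatory regions, including enhancers upstream of Pou5f1, around Sox2 and around Nanog, and so form the circuit that maintains self-renewal.

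The sequence just upstream of each gene's start is shown to tell whether the octamer and Sox motifs stood there. Its overlap with the deposited peaks is given too. Reads outside these peaks were not examined, so a window outside them was not shown to be closed. The letters are from RefSeq (GRCm38.p6, plus strand), cover the 250 bases before the RefSeq start of each gene, and lie at chr17:35505782-35506031 (Pou5f1), chr3:34649745-34649994 (Sox2) and chr6:122707239-122707488 (Nanog). Capitals mark an octamer core (ATGCAAA), a SOX core (ACAATG) beside an octamer core, or a GC box core (GGGCGG), each searched on both strands.
Pou5f1: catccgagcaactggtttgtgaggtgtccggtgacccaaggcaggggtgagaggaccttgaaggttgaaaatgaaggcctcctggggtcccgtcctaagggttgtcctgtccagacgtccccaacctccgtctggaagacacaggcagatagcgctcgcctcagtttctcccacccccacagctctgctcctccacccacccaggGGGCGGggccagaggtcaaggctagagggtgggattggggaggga
Sox2: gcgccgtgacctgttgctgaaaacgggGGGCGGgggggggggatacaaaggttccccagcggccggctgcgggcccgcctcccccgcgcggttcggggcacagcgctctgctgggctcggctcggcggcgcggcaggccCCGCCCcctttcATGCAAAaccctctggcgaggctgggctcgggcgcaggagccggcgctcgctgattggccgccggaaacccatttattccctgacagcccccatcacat
Nanog: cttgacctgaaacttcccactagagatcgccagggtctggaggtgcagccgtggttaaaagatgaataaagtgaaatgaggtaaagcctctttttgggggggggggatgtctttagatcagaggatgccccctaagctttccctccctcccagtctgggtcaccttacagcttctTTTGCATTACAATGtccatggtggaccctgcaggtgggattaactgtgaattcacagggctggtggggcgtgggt
The Nanog window lay whole inside a peak (250 of 250 bases), and 207 of the Sox2 window's bases did. None of the Pou5f1 window did, and the nearest peak ended 753 bases upstream of it. The Nanog window held TTTGCAT, any base and then ACAATG, at 75 to 62 bases before the start. This joint motif of the octamer and SOX cores was found in 2 of the 32817 promoter windows of this length (0.00609%). A gene can have several windows, and both of these were Nanog's own and overlapped. The Sox2 window held an octamer core 99 to 93 bases before the start, a motif in 4.13% of windows, and 2 GC box cores, a motif in 32.7%. The Pou5f1 window held a GC box core 45 to 40 bases before the start. The SOX core alone was in 10.7% of windows. The windows differed in composition, with a GC content of 62.0% and 8 CpG dinucleotides for Pou5f1, 72.0% and 27 for Sox2, and 52.0% and 3 for Nanog, against medians of 52.4% and 6 over all windows. Of all windows, 43.4% overlapped a peak.

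The 8 peaks lay at the following mm10 positions, with distances given to the RefSeq start of the gene. For Pou5f1 (ENSMUSG00000024406), a distal peak lay between genes at chr17:35490214-35491114, centred 15369 bp upstream. A proximal upstream peak of 1314 bp (chr17:35503716-35505029) spanned 2316 to 1003 bp upstream of the start. An intronic peak (chr17:35509255-35509937) lay 3223 to 3905 bp inside the gene, in intron 3 of 4. The authors' annotation gave the intronic peak a distance of 775 bp to another Ensembl start, so it counted as a promoter peak under the limit of 1000 bp. For Sox2 (ENSMUSG00000074637), a gene with a single exon, an upstream peak (chr3:34648778-34649690) was centred 762 bp before the start. Its Ensembl annotation was an intron of an overlapping transcript at 1171 bp from a start, and its RefSeq annotation was promoter. The Sox2 gene peak of 1604 bp (chr3:34649788-34651391) ran over the start and the exon, 207 bp before to 1396 bp after the start. For Nanog (ENSMUSG00000012396), the promoter peak (chr6:122707023-122707643) spanned the start from 466 bp before to 154 bp after it. The other Nanog peaks lay between genes downstream, centred 8488 bp (chr6:122715475-122716480) and 12686 bp (chr6:122719858-122720493) from the start.

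**Figure D1:**
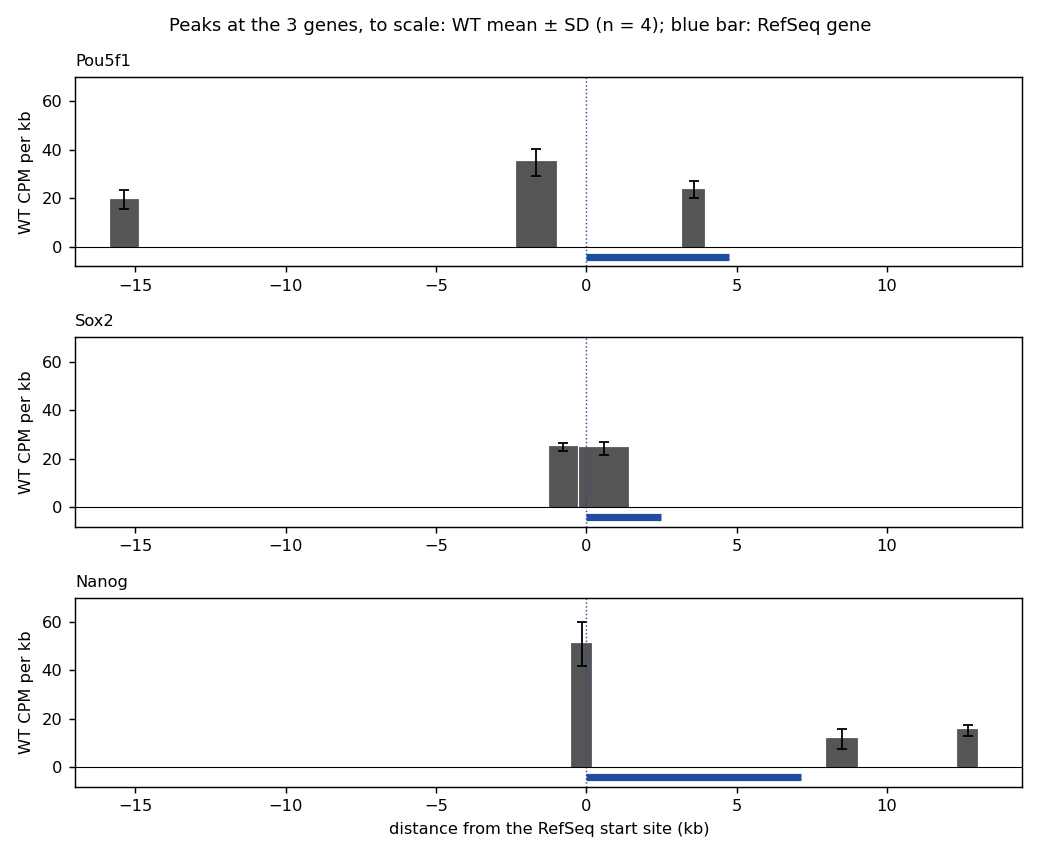
Position and height of the 8 peaks, as distance from the RefSeq start of each gene (x axis, kb, plus strand to the right) and WT level (y axis, CPM per kb, mean and SD of 4 libraries). Bars are peaks drawn to scale and the blue bar is the gene; the Nanog and Sox2 starts lie inside a peak, and the Pou5f1 start does not.

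Levels are counts divided by the TMM-scaled library size (CPM, per 1e+06 counts in peaks), and libraries held 2492045 to 5540559 counts in peaks. In WT, the peaks with most cuts were the proximal upstream Pou5f1 peak at 45.8 ± 7.15 CPM, the Sox2 gene peak at 38.8 ± 4.21 CPM and the Nanog promoter peak at 31.7 ± 5.60 CPM (SD, n = 4). The first and the second of these, and the second and the third, differed by less than the sum of their SDs. The others followed with 22.8 ± 1.56 CPM at the upstream Sox2 peak, 17.5 ± 3.48 CPM at the distal Pou5f1 peak, 16.2 ± 2.32 CPM at the intronic Pou5f1 peak, 11.7 ± 4.12 CPM at the nearer downstream Nanog peak and 9.75 ± 1.45 CPM at the farther one. The median tested peak had 9.54 CPM in WT. The means of all 8 lay above it, those of the downstream Nanog peaks by less than their SDs.

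Because the peaks differ in width, levels were also taken per kb. On that scale the Nanog promoter peak came first with 51.0 ± 9.02 CPM per kb in WT, a level above 98.5% of tested peaks. The proximal upstream Pou5f1 peak had 34.8 ± 5.44 CPM per kb. The upstream Sox2 peak, the Sox2 gene peak and the intronic Pou5f1 peak had 24.9 ± 1.70, 24.2 ± 2.62 and 23.7 ± 3.40 CPM per kb, which did not differ beyond their spread. The distal Pou5f1 peak had 19.4 ± 3.86 CPM per kb. The downstream Nanog peaks had 11.6 ± 4.10 (nearer) and 15.3 ± 2.28 CPM per kb (farther), against a median of 14.8 over tested peaks. On this scale the nearer peak stood above only 30.2% of tested peaks. By total CPM the proximal upstream Pou5f1 peak stood above 99.0% of the 50856 tested peaks that were not at a promoter. The intronic peak, counted as Pou5f1's promoter peak, stood above 40.5% of the 18836 promoter peaks.

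Summed over the peaks of a gene, Pou5f1 had 67.5 ± 6.07 CPM in AID-Zzz3, 66.1 ± 4.42 in AID-Yeats2, 79.5 ± 3.14 in Supt7l KO and 79.4 ± 11.7 in WT (SD, n = 4 each). Sox2 had 62.7 ± 3.92, 61.8 ± 7.47, 65.8 ± 6.10 and 61.6 ± 4.97 CPM in the same 4 genotypes in that order. Nanog had 53.6 ± 5.01, 54.1 ± 4.53, 49.3 ± 4.25 and 53.1 ± 7.78 CPM. The library ranges of each mutant overlapped those of WT for each gene's sum. Counts were taken over a peak set shared by all libraries. These sums therefore cannot show whether each region was open in each genotype.

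**Figure D2:**
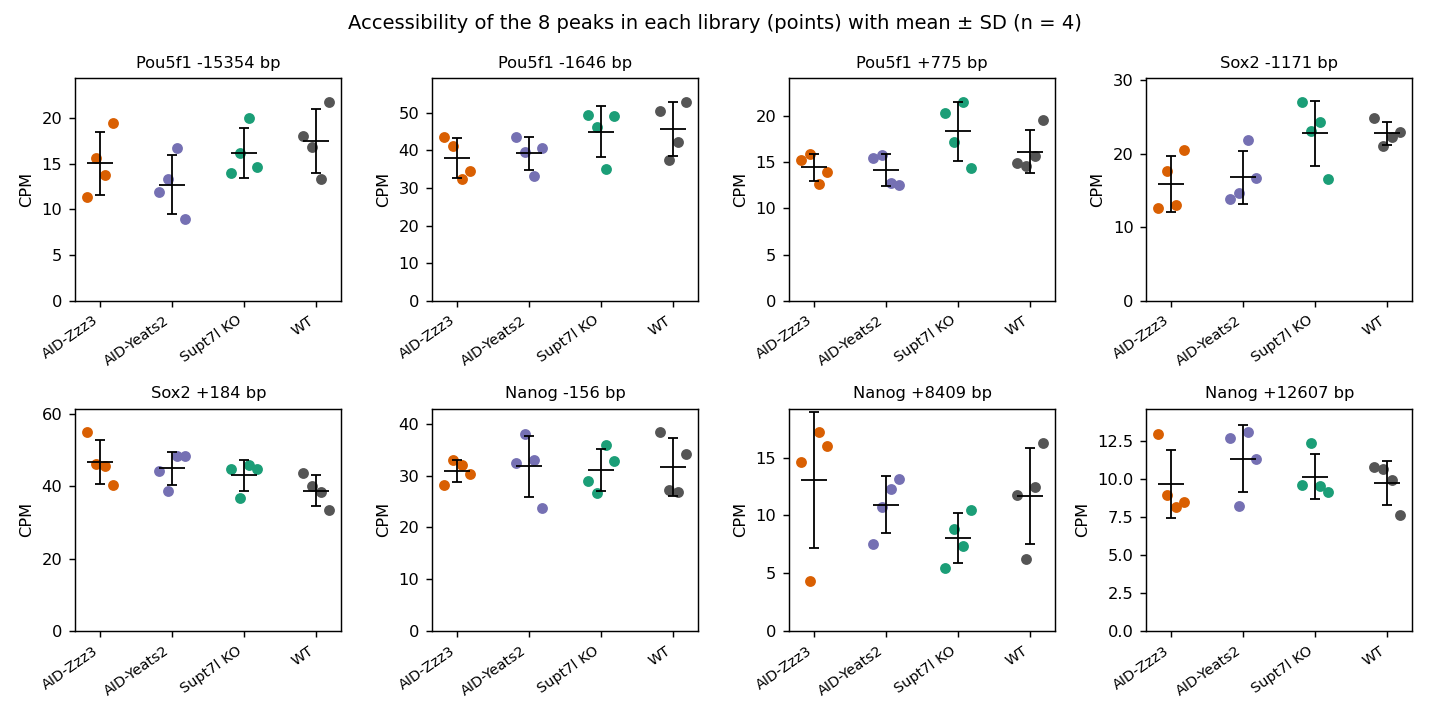
CPM of each of the 8 peaks in every library (y axis, from 0), for AID-Zzz3, AID-Yeats2, Supt7l KO and WT from left to right, with mean and SD of 4 libraries; panels are named by gene and the authors' distance in bp to the Ensembl start. At the upstream Sox2 peak (-1171) the 4 AID-Zzz3 libraries sit below the 4 WT libraries, and in the other panels each mutant overlaps WT.

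The AID-Zzz3 line was compared with WT to see which regions depend on this ATAC subunit, and no member passed the test (edgeR quasi-likelihood F test on all 16 libraries, Benjamini-Hochberg adjusted over all tested peaks; 0 of 8 at adjusted p under 0.05, against 0.98% of all tested peaks). At an unadjusted p under 0.05 there were 3 of 8 members, against 14.3% of all tested peaks. These 3 were the upstream Sox2 peak, the Sox2 gene peak and the proximal upstream Pou5f1 peak. The median log2 fold change of the 8 was -0.096, against -0.0052 over all tested peaks.

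The upstream Sox2 peak had 12.7, 17.6, 13.0 and 20.5 CPM in the AID-Zzz3 libraries, against 24.8, 21.0, 22.3 and 22.9 CPM in WT. All 4 AID-Zzz3 libraries lay below all 4 WT libraries. It was the 1 of 8 members whose groups did not overlap, against 7.47% of all tested peaks. Its log2 fold change was -0.50 (SE 0.18, 95% interval -0.87 to -0.14, edgeR adjusted p = 0.168), and it was -0.58 in replicates 1 and 2 alone and -0.42 in replicates 3 and 4 alone. The Sox2 gene peak had 54.9, 46.2, 45.6 and 40.3 CPM in AID-Zzz3, against 43.6, 40, 38.3 and 33.5 CPM in WT. Here the AID-Zzz3 libraries averaged more than WT and the groups overlapped, with a log2 fold change of 0.26 (SE 0.13, edgeR adjusted p = 0.333), 0.27 in replicates 1 and 2 alone and 0.26 in replicates 3 and 4 alone. So the adjacent Sox2 peaks had estimates of opposite sign in this line, and neither passed the test. In cells measured in bulk, fewer cells with a region open and less opening per cell cannot be told apart.

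At Pou5f1, the proximal upstream peak had 43.6, 41.2, 32.4 and 34.5 CPM in AID-Zzz3, against 50.5, 37.4, 42.3 and 52.8 CPM in WT. The groups overlapped and the log2 fold change was -0.27 (SE 0.13, edgeR adjusted p = 0.329), with -0.063 in replicates 1 and 2 alone and -0.49 in replicates 3 and 4 alone. The distal and the intronic Pou5f1 peaks gave -0.20 and -0.16, with edgeR adjusted p = 0.710 and 0.767. Among the other 397 tested peaks in the same 10 Mb of chromosome 17 the median was -0.12.

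The Nanog promoter peak, which holds the joint octamer and SOX motif, had 28.3, 33.0, 32.1 and 30.2 CPM in AID-Zzz3, against 38.4, 27.3, 26.8 and 34.2 CPM in WT. The AID-Zzz3 values lay within the WT range, and the log2 fold change was -0.032 (95% interval -0.33 to 0.26, edgeR adjusted p = 0.950). Over all promoter peaks the median was -0.11 in this comparison. The nearer and farther downstream Nanog peaks gave 0.15 and -0.035 with wider intervals (-0.37 to 0.66 and -0.50 to 0.43).

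In AID-Yeats2 against WT, 0 of 8 members passed the test, against 0.822% of all tested peaks, and 2 of 8 had an unadjusted p under 0.05, against 13.4%. None of the 8 had groups that did not overlap, against 7.68% of all tested peaks. The upstream Sox2 peak had 13.9, 14.6, 21.9 and 16.7 CPM in AID-Yeats2, against the WT values of 24.8, 21.0, 22.3 and 22.9 CPM. Replicate 3 of AID-Yeats2 fell inside the WT range and the other 3 below it. The log2 fold change was -0.43 (SE 0.18, 95% interval -0.80 to -0.068, edgeR adjusted p = 0.267), with -0.68 in replicates 1 and 2 alone and -0.22 in replicates 3 and 4 alone. The Sox2 gene peak had 44.4, 38.8, 48.5 and 48.3 CPM in AID-Yeats2, against the 4 WT values from 33.5 up to 43.6 CPM, a log2 fold change of 0.21 (edgeR adjusted p = 0.496). It was -0.023 in replicates 1 and 2 alone and 0.43 in replicates 3 and 4 alone, so its sign was not the same in both sets.

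The distal Pou5f1 peak was the other member with an unadjusted p under 0.05 in AID-Yeats2. It had 11.9, 13.4, 16.7 and 8.94 CPM in AID-Yeats2, against 18.1, 16.9, 13.3 and 21.8 CPM in WT. The groups overlapped through replicate 3 of WT, and the log2 fold change was -0.43 (SE 0.21, edgeR adjusted p = 0.340). The proximal upstream and intronic Pou5f1 peaks gave -0.23 and -0.19. The Nanog promoter peak had 32.5, 38.0, 33.0 and 23.8 CPM in AID-Yeats2, and its log2 fold change against WT was 0.017 (95% interval -0.28 to 0.31, edgeR adjusted p = 0.977). The downstream Nanog peaks gave -0.080 (nearer) and 0.19 (farther).

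AID-Yeats2 and AID-Zzz3 were also compared with each other. None of the 8 members passed the test, as did 0.0% of all tested peaks, and 0 of 8 had an unadjusted p under 0.05, against 5.13%. The log2 fold changes ran over -0.24 to 0.23, and the smallest edgeR adjusted p was 0.978. At the upstream Sox2 peak the difference was 0.070 with a 95% interval of -0.32 to 0.46. The estimates of these lines against WT share the same 4 WT libraries.

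In Supt7l KO against WT, 0 of 8 members passed the test, against 1.09% of all tested peaks, and 1 of 8 had an unadjusted p under 0.05, against 12.4%. None had groups that did not overlap, against 6.81%. The upstream Sox2 peak had 27.0, 23.1, 24.3 and 16.6 CPM in Supt7l KO, against 24.8, 21.0, 22.3 and 22.9 CPM in WT. The means were 22.7 ± 4.42 CPM in Supt7l KO and 22.8 ± 1.56 CPM in WT, and the log2 fold change was -0.0012 (95% interval -0.35 to 0.35, edgeR adjusted p = 0.999). At the Nanog promoter peak, Supt7l KO had 28.9, 26.6, 36.0 and 32.9 CPM, and the log2 fold change was -0.034 (95% interval -0.33 to 0.26). The Sox2 gene peak gave 0.14 (edgeR adjusted p = 0.704), and the Pou5f1 peaks gave -0.11 (distal), -0.020 (proximal upstream) and 0.18 (intronic).

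The member with the unadjusted p under 0.05 in Supt7l KO was the nearer downstream Nanog peak. It had 5.40, 8.81, 7.38 and 10.5 CPM in Supt7l KO, against 11.7, 6.24, 12.4 and 16.2 CPM in WT. The groups overlapped through replicate 2 of WT, and the log2 fold change was -0.54 (SE 0.27, edgeR adjusted p = 0.401), with -0.35 in replicates 1 and 2 alone and -0.66 in replicates 3 and 4 alone. The lowest count of any member in any library, 18, was at this peak in replicate 2 of AID-Zzz3 (4.34 CPM). At this peak replicate 2 of AID-Zzz3 lay below every other library, while the other AID-Zzz3 libraries had between 14.7 and 17.2 CPM.

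**Figure D3:**
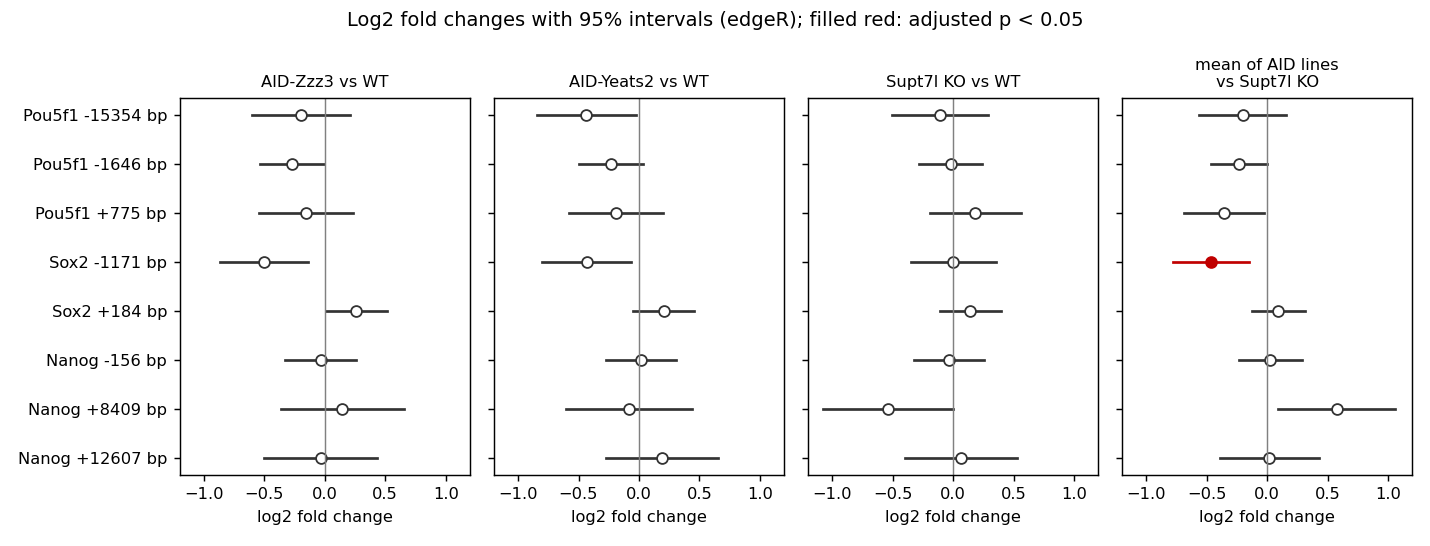
Log2 fold change of each of the 8 peaks (points, with 95% intervals, filled where the adjusted p was under 0.05) in AID-Zzz3, AID-Yeats2 and Supt7l KO against WT and in the mean of both ATAC lines against Supt7l KO. The only estimate with an adjusted p under 0.05 is the upstream Sox2 peak in the last comparison, at -0.47.

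The mean of AID-Zzz3 and AID-Yeats2 was set against Supt7l KO to compare loss of ATAC subunits with loss of a SAGA subunit, and the upstream Sox2 peak was lower in the ATAC lines. It averaged 16.3 CPM over the 8 libraries of the ATAC lines, against 22.7 CPM in Supt7l KO, a fold of 0.724. The log2 fold change was -0.47 (SE 0.16, 95% interval -0.78 to -0.15, edgeR adjusted p = 0.0312), and 4 of the 8 ATAC-line libraries lay below every Supt7l KO library. This was 1 of 8 members called, against 17.6% of all tested peaks, and 4 of 8 members had an unadjusted p under 0.05, against 30.8%. Within replicates 1 and 2 the log2 fold change was -0.75 (adjusted p = 0.0157), and within replicates 3 and 4 it was -0.17 (adjusted p = 0.699), so the call did not hold in both sets. The call was lost on leaving out replicate 1 or 3 of AID-Zzz3, 1 or 2 of AID-Yeats2, or 1, 2 or 3 of Supt7l KO, with adjusted p from 0.0511 up to 0.157, and the estimate stayed between -0.58 and -0.37 over the 12 fits that left out 1 library.

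The other members did not pass. The intronic Pou5f1 peak averaged 14.3 CPM in the ATAC lines and 18.4 CPM in Supt7l KO (log2 fold change -0.36, edgeR adjusted p = 0.131). The proximal upstream Pou5f1 peak averaged 38.6 CPM in the ATAC lines and 45.0 CPM in Supt7l KO (-0.23, edgeR adjusted p = 0.159). The nearer downstream Nanog peak went the other way, with 12.0 CPM in the ATAC lines and 8.02 CPM in Supt7l KO (0.57, edgeR adjusted p = 0.0906), and it was called when replicate 2 of AID-Zzz3 was left out (0.73, adjusted p = 0.0158). The Sox2 gene peak and the Nanog promoter peak gave 0.092 and 0.026. For comparison, the median over promoter peaks was -0.20 and over other peaks 0.087 in this comparison, and the other 255 tested peaks in the same 10 Mb as Sox2 had a median of 0.010.

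The balance of the adjacent Sox2 peaks was described as a ratio of raw counts, upstream over gene peak, which does not depend on how libraries are scaled. The ratio was chosen after its values were seen and carries no test. It was 0.230, 0.380, 0.284 and 0.509 in the AID-Zzz3 libraries, 0.312, 0.376, 0.452 and 0.346 in AID-Yeats2, 0.601, 0.629, 0.530 and 0.370 in Supt7l KO, and 0.568, 0.526, 0.582 and 0.686 in WT. All 8 libraries of the ATAC lines lay below all 4 WT libraries, while 3 of the 4 Supt7l KO libraries lay within the WT range. How often other pairs of adjacent peaks separate like this was not examined, and neither Sox2 peak passed the test against WT. The upstream peak held 25.5 ± 6.57% of the Sox2 counts in AID-Zzz3, 27.0 ± 3.11% in AID-Yeats2, 34.5 ± 5.22% in Supt7l KO and 37.1 ± 2.62% in WT. For Pou5f1, the proximal upstream peak held 56.1 ± 4.69%, 59.3 ± 5.32%, 56.5 ± 7.41% and 57.6 ± 2.84% of the gene's counts in the same order of genotypes. For Nanog, the promoter peak held 58.3 ± 9.03%, 58.6 ± 7.43%, 63.1 ± 5.39% and 59.6 ± 3.74%. The shares of these Pou5f1 and Nanog peaks thus overlapped between each mutant and WT within their spread.

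**Figure D4:**
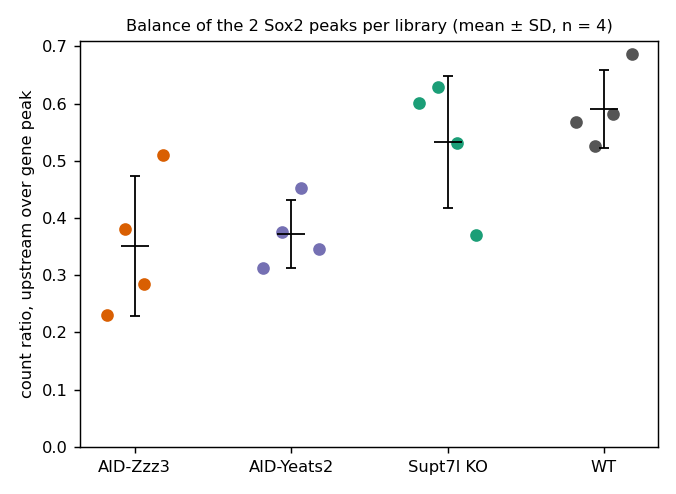
Ratio of raw counts in the upstream Sox2 peak over the Sox2 gene peak (y axis) per library, with mean and SD of 4 libraries per genotype. All AID-Zzz3 and AID-Yeats2 libraries lie below 0.526, the lowest WT library, and 1 of the 4 Supt7l KO libraries, at 0.370, does too. The ratio was picked after its values were seen, and no test was run on it.

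The surroundings of the 3 genes hold further open regions that the first annotation names otherwise. Within 150 kb of the starts there were 18 such peaks near Pou5f1, 20 near Sox2 and 37 near Nanog, and in the second, RefSeq-based annotation 6 of these 75 carried the name of Sox2 or Nanog. The strongest of the 6 lay 4876 bp upstream of Nanog (chr6:122701993-122703232) and had 81.1 ± 5.72 CPM in AID-Zzz3, 78.3 ± 5.84 in AID-Yeats2, 85.8 ± 5.42 in Supt7l KO and 83.6 ± 5.76 in WT. It was thus higher than any member, and its log2 fold changes against WT were -0.040, -0.094 and 0.042. Far downstream of Sox2, where its ES cell control region is known to lie, a peak 111374 bp from the start had 30.6 ± 4.48, 28.6 ± 7.88, 35.3 ± 4.45 and 34.2 ± 4.47 CPM in AID-Zzz3, AID-Yeats2, Supt7l KO and WT. Its log2 fold change in Supt7l KO against WT was 0.055. Peaks 106810, 107948 and 110290 bp from the start gave -0.039, -0.10 and -0.53 in that comparison. The last of them had 17.4 ± 3.16 CPM in Supt7l KO and 25.2 ± 3.84 CPM in WT (edgeR adjusted p = 0.146). None of the 75 passed the test in any mutant against WT, although 1 did in AID-Yeats2 both with a block for replicate number and with one for replicate set. In the ATAC lines against Supt7l KO 4 of the 75 passed, 1 near Pou5f1 and 3 near Nanog, all lower in the ATAC lines, against 17.6% of all tested peaks, so this share was below the background. That count was 1 without replicate 2 or without replicate 4 of Supt7l KO, 2 without replicate 2 of AID-Yeats2 or replicate 3 of Supt7l KO, and 8 when a term for the replicate set (1 and 2, or 3 and 4) was added.

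A list of 30 partner genes of the pluripotency network was read at 1 promoter peak per gene, the one with the highest mean within 1000 bp of a start. Of these, 27 had such a peak, and Dppa3, Nodal and Lefty1 had none. The median log2 fold change of the 27 was -0.058 in AID-Zzz3, -0.16 in AID-Yeats2 and 0.19 in Supt7l KO against WT, beside -0.11, -0.12 and 0.090 over all 15557 promoters. Klf5, a Krüppel-like factor of naive cells, was the 1 gene called in each. Its promoter peak lay on chromosome 14 (chr14:99298220-99299430). No median over the peaks around it was taken, so whether that region shifted with it was not tested. It fell by 0.57 on the log2 scale in AID-Zzz3 (edgeR adjusted p = 0.00972) and by 0.49 in AID-Yeats2 (0.0360), and rose by 0.52 in Supt7l KO (0.0119). All promoters were called lower at 0.913% in AID-Zzz3 and 0.848% in AID-Yeats2, and higher at 0.508% in Supt7l KO. The Klf5 promoter averaged 53.6 ± 6.20 CPM in AID-Zzz3, 57.0 ± 3.65 in AID-Yeats2, 114.5 ± 20.9 in Supt7l KO and 80.2 ± 22.9 in WT, so WT was the most scattered group. The AID-Zzz3 call was lost without replicate 4 of WT (-0.37, adjusted p = 0.168) and within replicates 1 and 2 (-0.37, adjusted p = 0.435). The AID-Yeats2 call was lost in 8 of 16 alternatives, among them leaving out any 1 of the AID-Yeats2 libraries or replicate 1 or 4 of WT. That call was also lost within replicates 1 and 2 (-0.25, edgeR adjusted p = 0.577) and with DESeq2 (adjusted p = 0.0815). The Supt7l KO call was lost in 5, among them leaving out replicate 1 or 2 of Supt7l KO or 2 or 3 of WT. Within replicates 3 and 4 the rise in Supt7l KO was only 0.10 (edgeR adjusted p = 0.859), so that call did not hold in both sets.

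In the ATAC lines against Supt7l KO, 7 of the 27 partner promoters were called lower and 0 higher. Of all promoters 24.0% were called lower, so the share among the partner genes was near the background. The median was -0.31, beside -0.21 over all promoters. The 7 were the naive factors Klf5 (-1.05), Tbx3 (-0.54), Klf2 (-0.50), Klf4 (-0.36) and Esrrb (-0.36), the LIF effector Stat3 (-0.52) and the chromatin factor Utf1 (-0.44). The calls of Klf5 and Stat3 stood in all 20 alternatives, and those of Tbx3 and Klf2 were lost only within replicates 3 and 4. The Esrrb call was lost in 5, among them leaving out replicate 1 or 2 of Supt7l KO. The Klf4 call was lost in 7, among them leaving out replicate 2 or 3 of AID-Yeats2 or 2 or 4 of Supt7l KO. The Utf1 call was lost in 7, among them leaving out replicate 2 of AID-Zzz3, 4 of AID-Yeats2 or 3 or 4 of Supt7l KO, and its estimate within replicates 1 and 2 was 0.065. The peaks counted as main promoter peaks of Pou5f1 (the intronic one), Sox2 and Nanog, with -0.36, 0.092 and 0.026, were not called. Nor was the proximal upstream Pou5f1 peak, with -0.23.

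Promoter peaks of other cell types were read as a check on the cells, although an open promoter does not show that a gene is expressed. Of 8 naive ES cell markers, 7 had a promoter peak, and their summed level was 225 to 265 CPM in AID-Zzz3, 243 to 271 in AID-Yeats2, 288 to 322 in Supt7l KO and 248 to 276 in WT. Of 4 fibroblast markers, 3 had a promoter peak, summing to 33.3 to 50.5 CPM in AID-Zzz3, 34.9 to 39.8 in AID-Yeats2, 30.9 to 35.7 in Supt7l KO and 31.7 to 36.3 in WT. Of 4 primitive endoderm markers, Gata6 and Sox17 had open promoters (137 to 164, 143 to 171, 137 to 176 and 126 to 160 CPM summed in the same order), and Gata4 and Sox7 had no promoter peak. All 4 trophoblast markers had one (65.0 to 76.1, 59.5 to 86.4, 73.2 to 92.0 and 67.4 to 77.2 CPM), as did all 3 neuroectoderm markers (51.3 to 59.4, 42.6 to 53.8, 56.5 to 64.5 and 52.0 to 68.0 CPM). Of 3 mesendoderm markers 2 had one, and T had none (38.3 to 51.8, 38.0 to 56.0, 41.9 to 63.7 and 43.2 to 57.3 CPM). The sum over the naive markers was thus higher in every Supt7l KO library than in any other library. Not every single marker was: Zfp42 averaged 46.5 CPM in Supt7l KO, against 46.8 CPM in AID-Zzz3. Promoter peaks in general went the same way, with a median log2 fold change of 0.086 in Supt7l KO against WT. Their median was -0.20 in the ATAC lines against Supt7l KO. How often sums over other promoters separate like this was not examined. The partner genes include all 7 of these naive markers, and the markers' part in the results above was not tested.

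The promoters whose log2 CPM ran most like that of a member over the 16 libraries were found among 11235 promoters. For the intronic Pou5f1 peak they were Rpl37 (Pearson r = 0.896), Tecr (0.875) and Ccdc182 (0.872). For the Sox2 gene peak they were Ccdc184 (0.816), Pcsk5 (0.768) and Vstm5 (0.767), and for the Nanog promoter peak Col1a1 (0.808), Mir3093 (0.725) and Kat2b (0.707). Kat2b encodes an acetyltransferase that can occupy the catalytic place in both complexes. These values describe 16 libraries that share genotypes and depth, chosen as the highest of many, and carry no test.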

How the data were processed

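The authors deposited raw counts for each library over 1 shared set of peaks. Per the submitters' processing notes, the tools were MACS2 2.1.1.20160309, Bowtie2 2.2.6, bedtools 2.26.0, DESeq2 1.16.1 and HOMER, and the build was mm10. Per the file headers, the same file gives log2 fold changes with adjusted p-values from the authors' DESeq2 comparisons. In the authors' deposited table no member had an adjusted p under 0.05, and the upstream Sox2 peak had log2 fold changes of -0.49 in AID-Zzz3 (adjusted p = 0.115) and -0.43 in AID-Yeats2 (adjusted p = 0.216). The name of that table holds the word batch, and the fit reported here had no covariate, so the models may differ. The deposited normalised columns were not used.

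All peaks entered 1 edgeR 4.0.16 fit of the counts under R 4.3.3 (quasi-likelihood F tests, two-sided, TMM scaling, filterByExpr, no covariate), which removed 458 peaks. Benjamini-Hochberg adjustment ran over the 69692 tested peaks, and a peak was called at an adjusted p under 0.05. CPM per library used no prior count; log2 CPM for the likeness between peaks used a prior count of 2. Sequences came from RefSeq tables of GRCm38.p6, the same assembly as mm10. Members were all peaks with one of the 3 names, the most alike promoters were the 3 highest correlations per gene, and the members and lists were chosen with earlier results of these data known. Alternatives were RLE scaling, library totals alone, no filter, DESeq2 1.42.0, blocks for replicate number or replicate set, each set alone, a promoter limit of 3000 bp, and leaving out each library. Group means of counts in peaks were 3633234 ± 512378 in AID-Zzz3, 3632302 ± 971776 in AID-Yeats2, 4048807 ± 682917 in Supt7l KO and 4873579 ± 684319 in WT, and 0 pairs of libraries were identical. Tested on simulated data for AID-Zzz3 against WT (69512 peaks), the fit called 51% of 100 peaks changed by 1 on the log2 scale. It called 5.1% of 98 peaks changed by 0.5. The changed peaks were few and drawn at random over all levels. These shares therefore need not hold for the members, whose mean CPM in WT all lay above that of the median peak.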

Additional observations from a re-analysis of the deposited data

Results flagged for a closer look

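In 3 of the 32 sets of 4 libraries examined (8 peaks in 4 genotypes), 1 library stood apart from the other 3 by more than Dixon's 95% criterion, where chance gives about 1 in 20. The Sox2 gene peak had 36.7 CPM in replicate 2 of Supt7l KO, against 44.7, 44.9 and 45.8 CPM in the other Supt7l KO libraries. The farther downstream Nanog peak had 13.0 CPM in replicate 1 of AID-Zzz3, against 8.16, 8.50 and 8.91 CPM in the others of that line. The same Nanog peak had 12.4 CPM in replicate 2 of Supt7l KO, against 9.11, 9.54 and 9.57 CPM in the others.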

How the results depend on the processing

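The count of members called against WT, and of AID-Yeats2 against AID-Zzz3, stayed at 0 in every alternative run. For the ATAC lines against Supt7l KO it was 1, and 0 with library totals alone or with replicates 3 and 4 alone, and 0 to 2 over the fits that left out 1 library. The upstream Sox2 peak gave -0.40 (adjusted p = 0.0709) with library totals alone, and kept its call with RLE scaling, without the filter and with DESeq2 (adjusted p = 0.0317, 0.0323 and 0.0328). Only 1 of 24 correlations of same-numbered libraries was over 0.1 (0.0163 to 0.111), so the numbers were not taken to pair samples. All 24 correlations of same-numbered libraries and all 24 of other libraries in the same set (1 and 2, or 3 and 4) were positive, and all 48 between the sets were negative (-0.109 to -0.0167), so libraries split by set, and the reported fit had no term for it. With the replicate block the member counts were 0 against WT and 1 against Supt7l KO, where the upstream Sox2 peak gave -0.47 (adjusted p = 0.0231), or 0.0201 with a block for the 2 sets of replicates. Of 672 alternative fits of single peaks, 74 had the other sign, all for estimates no larger than 0.23 in size. The sign of 24 of the 40 member estimates changed in at least 1 alternative. With a promoter limit of 3000 bp, 29 partner genes were measured, with 1, 1 and 1 called against WT and 6 against Supt7l KO. In 64 alternative scalings of group levels, 0 moved by over 1 SD. The depth limits the peaks with few counts most, the downstream Nanog peaks above all.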
